A study of Mus musculus with 32 samples.

Results

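The genes described here are 39 interferon-stimulated genes measured in mouse liver, taken as every array probe whose gene name in the scanner files is one of 39 listed symbols. All 39 were found, on 52 probes, and all 39 were bright enough to be tested, among 21730 tested genes of 34836 gene names on the array. They comprise 5 transcription factors (Irf1, Irf7, Irf8, Irf9, Stat2), 5 nucleic acid sensors or sensor partners (Ddx58, Ifih1, Dhx58, Zbp1, Trim25) and 2 genes of the ISG15 modification system (Isg15, Usp18). The 14 antiviral effectors are Mx1, Mx2, Ifit1, Ifit2, Ifit3, Oas1a, Oas2, Oas3, Oasl1, Oasl2, Eif2ak2, Rsad2, Bst2 and Isg20. A further 6 genes encode interferon-inducible GTPases (Gbp2, Gbp3, Gbp6, Igtp, Irgm1, Iigp1), 3 serve class I antigen processing (Tap1, Psmb8, Psmb9) and 4 have other or less settled roles (Rtp4, Ifi44, Xaf1, Parp14).

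Type I and type III interferons act through a transcription factor complex that contains STAT2 and IRF9 and binds the interferon-stimulated response element (ISRE) in promoters, whereas interferon gamma acts mainly at gamma-activated sites (GAS). The induced proteins sense viral nucleic acid, block viral replication, remodel pathogen-containing vacuoles and prepare peptides for display, and USP18 shuts the type I receptor's signal down again. In the liver, hepatocytes, resident macrophages (Kupffer cells) and endothelial cells can all express such genes.

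The livers came from male C57/BL6 mice, 4 animals in each of 8 groups, with 1 one-colour array per liver. Baseline groups were fed standard diet for 3 weeks, or a methionine and choline deficient (MCD) diet, which produces a fatty, inflamed liver, for 3 weeks. Each diet was also given with a dual agonist of the glucagon-like peptide 1 receptor and the glucagon receptor (GLP1R/GCGR) at 4.4 mg/kg/day for 2 weeks, in the MCD animals after the first week of diet. The labels add that it was given every other day, so the dose per injection is not settled. The same 4 regimens were repeated in animals that had 70% of the liver removed and were killed 2 weeks after this partial hepatectomy, with diet and treatment continued. MCD feeding models the fatty, inflamed liver by nutrient deficiency, and each array measured whole tissue.

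Levels are log2 signals minus the array's 75th percentile, so 0 is the brightness of the probe at that percentile, and levels of different genes are not comparable. Between 44.4% and 69.7% of spots were well above background per array, the highest share being in standard-diet replicate 2, which stood apart from the next at 61.7%. "Rose" and "fell" are used for genes with an adjusted p under 0.05 in one limma fit over all groups, and changes are differences of log2 level ± SE with n = 4 livers per group. The arrays sat on 4 slides with 2 groups each, so that comparisons between standard and MCD diet at baseline, and between agonist and none after hepatectomy, were made within a slide. In the other comparisons slide and treatment cannot be told apart, and the baseline and hepatectomy sets were also read on different scanners. A change in whole liver can come from more or fewer cells of a type or from more or less RNA per cell, and these cannot be told apart. Transcripts of 6 hepatocyte markers summed to between 1501 and 3518 times the 75th percentile on every array.

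The authors' deposited table of log2 values for the same livers names 16 of its 32 columns differently from the scanner files. Matched by correlation over probes, the table's columns for MCD livers fitted the arrays labelled standard diet with agonist, and the reverse, replicate by replicate, both at baseline and after hepatectomy. The groups named here are those of the scanner files, and the files do not settle which naming is right. Under the table's naming, agonist against none on standard diet and MCD against standard diet without agonist trade places, as do agonist against none on MCD diet and MCD against standard diet under agonist. Hepatectomy on MCD diet likewise trades places with hepatectomy on standard diet with agonist. The diet by agonist interaction, hepatectomy on standard diet and hepatectomy on MCD diet with agonist use the same arrays in the same way under either naming. Counts from the table as labelled, from the same limma test, are given beside the diet and agonist comparisons. Hepatectomy was not tested in the table, whose baseline and hepatectomy columns have different medians.

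Promoter sequences were searched for ISRE and GAS letters, and neither was found in every gene that had an entry. In the RefSeq promoter table (GRCm38.p6, 250 bases before to 50 after each start), 29 of the 39 genes had an entry, with 36 promoters. Entries for Dhx58, Zbp1, Usp18, Mx1, Mx2, Oas2, Gbp6, Iigp1, Rtp4 and Parp14 were not used here. The ISRE core, which is GAAA, any 2 bases and GAAA again, searched on both strands with overlapping matches counted, was present in 15 of the 29 genes (51.7%), against 3.99% of all 27025 genes in the table. The GAS letters TTCNNNGAA were present in 9 of the 29 (31.0%), against 9.55% of all genes. All 4 GTPase genes with an entry and 7 of 11 antiviral effectors held the ISRE core, compared with 1 of 5 transcription factors and 0 of 3 antigen processing genes. A match of letters is a description and not a site. 100-base windows, 5′ to 3′ on the gene's strand, are printed for 5 genes to show how the core occurs singly, as a pair or in tandem, with its letters in capitals, in order at chr11:58199456-58199555 (+), chr19:34640749-34640848 (+), chr3:142559944-142560043 (+), chr8:71537545-71537644 (-) and chr4:156200836-156200935 (-).
Igtp: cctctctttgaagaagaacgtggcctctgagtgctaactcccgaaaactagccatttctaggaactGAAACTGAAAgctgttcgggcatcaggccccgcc
Ifit1: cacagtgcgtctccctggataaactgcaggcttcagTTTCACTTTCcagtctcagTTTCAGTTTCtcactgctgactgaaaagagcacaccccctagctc
Gbp3: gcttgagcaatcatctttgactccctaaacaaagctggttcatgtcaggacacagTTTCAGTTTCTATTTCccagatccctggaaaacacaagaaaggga
Bst2: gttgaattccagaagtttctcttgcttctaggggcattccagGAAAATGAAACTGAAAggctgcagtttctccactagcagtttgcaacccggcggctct
Isg15: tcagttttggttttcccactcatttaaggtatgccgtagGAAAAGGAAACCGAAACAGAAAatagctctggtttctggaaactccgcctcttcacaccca

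Across the 8 groups, the mean level of 17 of the 39 genes was highest in standard-diet livers given the agonist and that of 14 was highest in standard-diet livers after hepatectomy. The lowest mean lay in untreated standard-diet livers for 11 genes, in MCD livers with agonist after hepatectomy for 11, and in MCD livers with agonist at baseline for 9. In some groups many of the genes were highest or lowest in the same liver, and single livers weighed on several results. Replicate 3 of the standard-diet agonist group was the highest of its 4 livers for 26 of the 39 genes, against 24.1% of all genes. In the MCD agonist group replicate 3 was the lowest for 27 of 39, against 26.3% of all genes, and among the standard-diet livers after hepatectomy replicate 1 was the highest for 29, against 23.2%. In the latter group replicate 3 was the lowest for 28, against 20.2% of all genes. Replicate 4 of the standard-diet agonist group at baseline was the lowest for 21, against 22%. After hepatectomy, replicate 1 on MCD diet without agonist was the highest for 24, against 26% of all genes. Replicate 4 on standard diet with agonist was the highest for 22, against 25%. The baseline MCD livers without agonist were more even, with none the highest for more than 12 of the 39. No MCD liver with agonist after hepatectomy was the highest for more than 13. The mean of the 39 genes after centring each gene was -0.34 ± 0.12 (SD) in standard-diet livers, 0.14 ± 0.06 in MCD livers, 0.57 ± 0.50 in standard-diet livers with agonist and -0.41 ± 0.51 in MCD livers with agonist. After hepatectomy it was 0.56 ± 0.69, -0.30 ± 0.26, 0.26 ± 0.31 and -0.47 ± 0.07 in the same order.

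**Figure D1:**
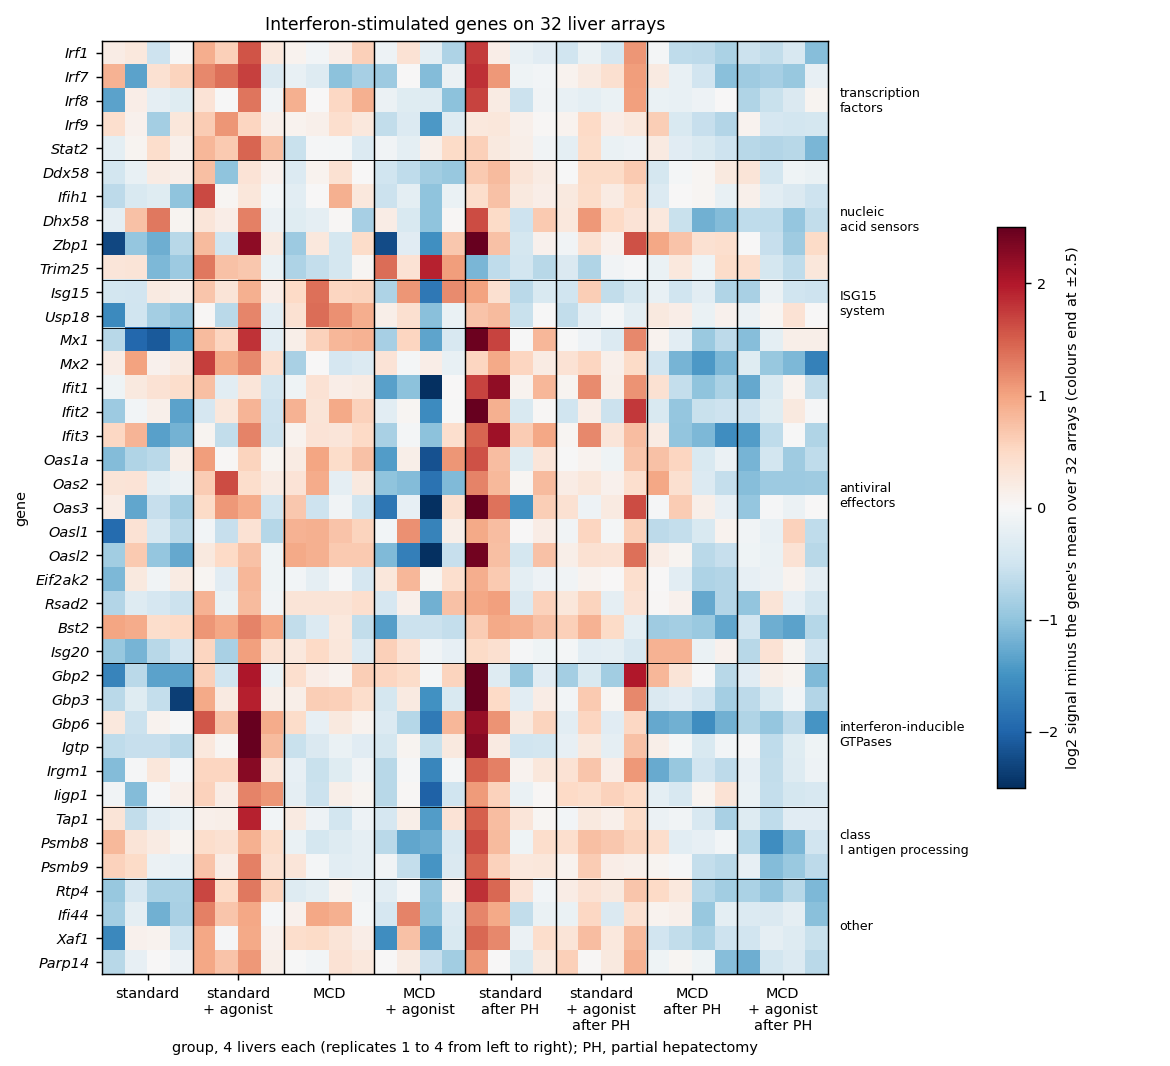
Level of each of the 39 genes (rows, grouped by role) on each of 32 arrays (columns, 4 livers per group), as log2 signal minus the gene's own mean, with colours ending at ±2.5. Replicate 3 of the standard-diet agonist group and replicate 1 of the standard-diet group after hepatectomy stand out as red columns, and replicate 3 of the MCD agonist group as a blue one.

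Kupffer cell markers are given here because they move with several of the comparisons, although not with the 39 genes in every group. The summed linear signal of 6 markers (Clec4f, Vsig4, Timd4, Cd5l, Marco, Csf1r), in multiples of the 75th percentile, ranged from 56.5 to 105.3 in standard-diet livers and from 114.3 to 335.1 in MCD livers. It was 163.3 to 244.2 in standard-diet livers with agonist and 64.8 to 128.8 in MCD livers with agonist. After hepatectomy the ranges were 128.2 to 529.9 on standard diet, 176.2 to 517.8 on standard diet with agonist, 211.7 to 475.9 on MCD diet and 121.5 to 301.8 on MCD diet with agonist. The livers with the highest mean of the 39 genes in the standard-diet groups after hepatectomy, replicate 1 without and replicate 4 with agonist, also had the highest marker sums of their groups. At baseline this also held for standard-diet replicate 2 (sum 105.3) and for replicate 3 of the standard-diet agonist group (244.2). Standard-diet replicate 1 (56.5) and replicate 3 of the MCD agonist group (64.8) were the lowest of their groups on both. In that MCD agonist group the liver with the highest marker sum, replicate 1, did not have the highest mean. In some other groups the order differed. Among baseline MCD livers replicate 1 had the highest marker sum, 335.1, and the lowest mean of the 39 genes, 0.06. Among MCD livers with agonist after hepatectomy replicate 3 had the highest mean, -0.38, and the lowest marker sum, 121.5. On MCD diet after hepatectomy the marker sums stayed high while the 39 genes were low. All 6 Kupffer cell markers were bright enough to be tested. Other marker lists differed between groups as well. The sum of 6 sinusoidal endothelial markers at baseline was 50.6 to 65.8 in standard-diet livers and 74.9 to 104.65 with agonist. On MCD diet it was 67.5 to 88.8 without and 58.3 to 81.7 with agonist. T and NK cell markers summed to 70.4 to 151.2 in standard-diet livers and 17.4 to 21.1 in MCD livers. The part of any of these markers in the results was not tested.

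**Figure D2:**
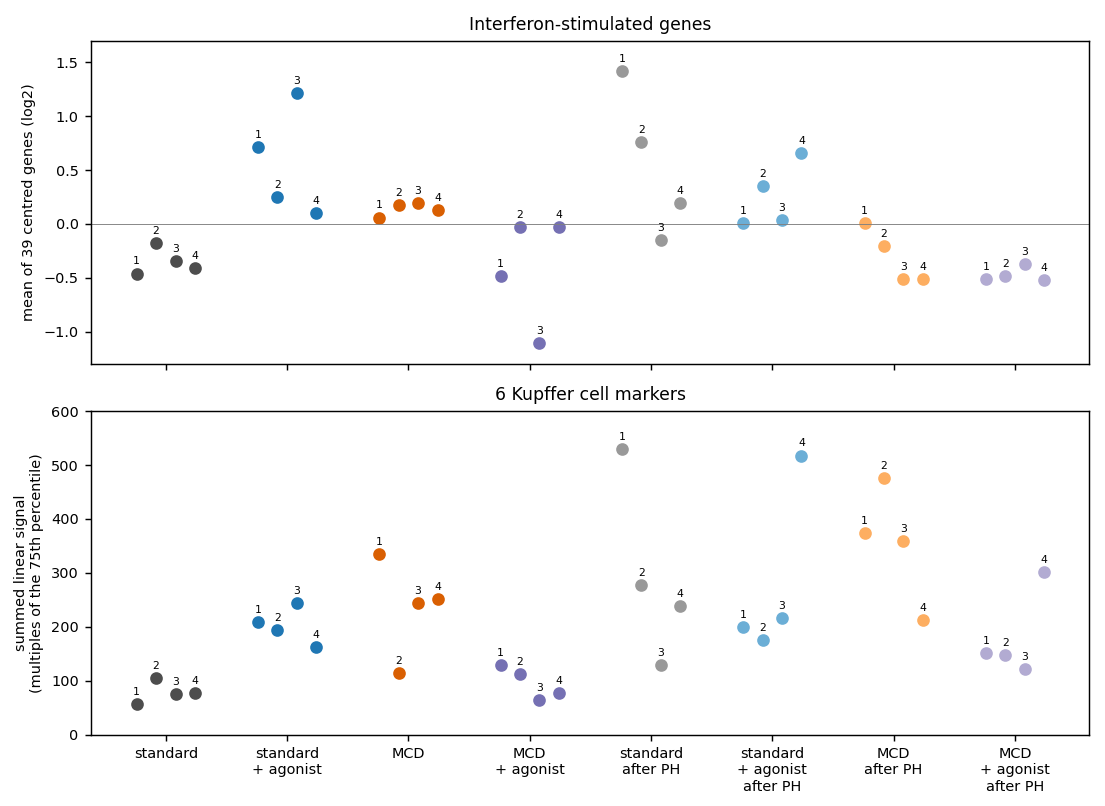
Upper panel, mean of the 39 centred genes on each array (log2); lower panel, summed linear signal of 6 Kupffer cell markers on the same array, with replicate numbers beside the points. The MCD livers after hepatectomy lie at or below 0.01 in the upper panel and between 211.7 and 475.9 in the lower one.

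The agonist on standard diet was the first question, that is, what the dual agonist did to these genes in livers without diet injury. Of the 39 genes 11 rose and 0 fell, where 6.53% of all tested genes changed and 3.33% rose. The median change of the 39 was 0.86, against -0.01 for all genes, and 37 of 39 estimates were positive. The genes that rose included the GTPases Gbp3, Gbp6 and Igtp, the sensors Ifih1 and Zbp1, the effectors Mx1 and Isg20, the transcription factor Stat2, and Rtp4, Ifi44 and Parp14.

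Rtp4, which encodes a receptor transporter protein with antiviral activity, read 2.22, 2.75, 2.38 and 2.37 in the standard-diet livers and 4.84, 3.67, 4.49 and 3.73 with agonist. The 2 groups did not overlap, and the change was 1.75 ± 0.35 or 3.36-fold (adjusted p = 0.00383). Mx1, a dynamin-like GTPase that blocks viral replication, read -2.66, -3.92, -4.06 and -3.42 without agonist, where 1 of 4 arrays was well above background. With agonist it read -1.17, -1.42, -0.16 and -2.22, all above the untreated livers, a change of 2.27 ± 0.47 (adjusted p = 0.00565). After normexp background correction, which treats dim spots differently, the change was 1.19 and still passed.

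Ifih1, the sensor of long double-stranded RNA, read 1.72, 2.00, 2.08 and 1.37 without agonist and 4.04, 2.44, 2.66 and 2.33 with it. Every treated liver lay above every untreated one and replicate 1 lay far above the rest, for a change of 1.07 ± 0.29 (adjusted p = 0.025). Gbp3, a guanylate-binding protein, went from 0.03, 0.41, 0.12 and -1.64 to 1.66, 0.92, 2.66 and 0.85, a change of 1.79 ± 0.48 (adjusted p = 0.0253) with no overlap. Ifi44, a cytoplasmic protein gene induced by interferon, went from -1.70, -1.08, -2.05 and -1.68 to 0.40, -0.16, 0.10 and -0.88, a change of 1.50 ± 0.41 (adjusted p = 0.0296).

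Stat2, a transcription factor of type I interferon signalling, read 3.27, 3.57, 3.95 and 3.64 without and 4.33, 4.16, 4.97 and 4.26 with agonist, and rose by 0.82 ± 0.23 (adjusted p = 0.0304). The remaining genes that rose were Zbp1 (1.97 ± 0.60), Igtp (1.58 ± 0.46), Gbp6 (1.57 ± 0.44), Isg20 (1.10 ± 0.31) and Parp14 (0.99 ± 0.31), with adjusted p from 0.0304 to 0.0493. Genes often used as interferon readouts did not pass here: Isg15 changed by 0.65 ± 0.45, Rsad2 by 0.86 ± 0.37, Gbp2 by 1.74 ± 0.61 and Ifit1 by -0.15 ± 0.45. Gbp2 spanned 0.44 to 2.96 among the treated livers.

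The count of 11 rests on few livers. It fell to 3 without replicate 1 or without replicate 3 of the agonist group, to 4, 5, 7 and 4 without standard-diet replicates 1, 2, 3 and 4, to 4 with no filter on dim probes and to 2 when only these 2 groups were fitted. Mx1 and Rtp4 kept their calls under each of the 15 alternatives fitted gene by gene. The authors' deposited table as labelled gave 10 rises and 3 falls. Isg20, which has 2 tested probes, changed by 0.25 on the other one. Of the 6 Kupffer cell markers 4 rose in this comparison with 0 falls, led by Vsig4 at 2.11 (adjusted p = 0.00643), and their part in the result was not tested. These groups were on different slides.

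The agonist on MCD diet gave the opposite direction for most of the genes. Here 5 of 39 fell and 1 rose, where 13.3% of all tested genes changed, 4.37% falling. The median was -0.64, against 0.15 for all genes, and 31 of 39 estimates were negative.

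Oasl2, an oligoadenylate synthetase-like protein, read 0.69, 0.62, 0.40 and 0.38 in MCD livers and -1.36, -1.96, -3.03 and -0.83 in MCD livers given agonist. The groups lay well apart, and it fell by 2.32 on the log2 scale (SE 0.46, 4.99-fold lower, adjusted p = 0.00253). Oas2, which makes the 2′-5′ oligoadenylates that activate RNase L, read 1.06, 1.66, 0.49 and 0.97 and then -0.28, -0.37, -1.12 and -0.38, and changed by -1.58 ± 0.32 (adjusted p = 0.0026). All treated livers lay below all untreated ones for both synthetase genes.

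Usp18, the protease that removes ISG15 and restrains the type I receptor, read 2.78, 3.81, 3.54 and 3.32 without and 2.55, 2.81, 1.37 and 2.25 with agonist, overlapping in 1 pair of livers, and changed by -1.12 ± 0.35 (adjusted p = 0.0307). Irf9, the DNA-binding subunit of the complex with STAT2, read 3.23, 3.28, 3.58 and 3.42 and then 2.53, 2.81, 1.72 and 2.82 (change -0.90 ± 0.29, adjusted p = 0.0339). Ifit1, which binds viral RNA lacking cap methylation and whose promoter window holds 2 ISRE cores, read -1.52, -1.06, -1.25 and -1.21 and then -2.78, -2.44, -4.09 and -1.41 (change -1.42 ± 0.45, adjusted p = 0.035). Its 2 groups overlapped.

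Trim25, a ubiquitin ligase that acts with the sensor encoded by Ddx58, was the sole gene that rose, from 6.94, 7.13, 7.27 and 7.76 to 9.12, 8.08, 9.64 and 8.75 (change 1.63 ± 0.35, adjusted p = 0.0041). That reading comes from a probe that ends in a repeat of 31 bases. The gene's other probe, at chr11:88881521-88881580 (mm9), gave -0.025 with an adjusted p of 0.948. The last 30 bases of both probes are shown, with the repeat in capitals from its first whole unit.
Trim25 probe used: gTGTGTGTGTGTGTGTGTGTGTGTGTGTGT
Trim25 other probe: tctttatttgactgcttctgattctttttc

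With that exception, the called genes all fell. Oasl2 and Oas2 kept their calls under each of the 15 alternatives fitted gene by gene. The calls of Usp18, Irf9 and Ifit1 were each lost in 7 of the 15. Those of Irf9 and Ifit1 were lost without any 1 of MCD replicates 1 to 4. The count of 6 was 3 without MCD replicate 2, 3 or 4, 3 without replicate 3 of the MCD agonist group, and 3 in the fit to these groups alone. It was 13 (1 higher, 12 lower) after scaling to the array median and 15 (1 higher, 14 lower) after normexp background correction, and the authors' deposited table as labelled gave 0 rises and 10 falls. Of the 6 Kupffer cell markers 4 fell and 0 rose, led by Vsig4 at -1.93 (adjusted p = 0.00617), and their part was not tested. The groups were on different slides.

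**Figure D3:**
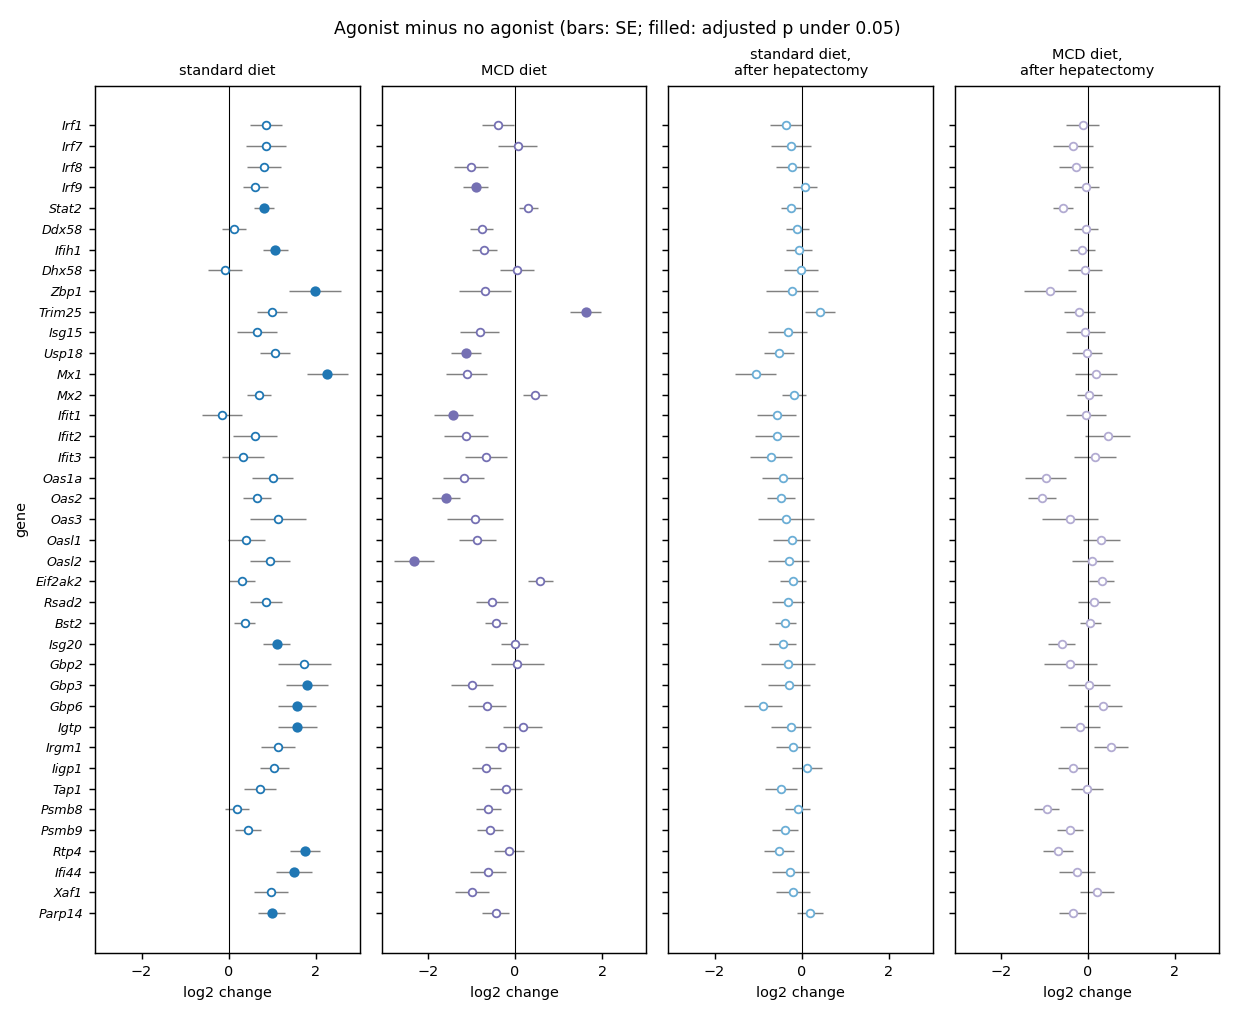
Change with agonist for each gene in the 4 backgrounds (log2, agonist minus none; bars, SE; filled points, adjusted p under 0.05). Estimates lie mainly right of 0 on standard diet, mainly left of 0 on MCD diet, and no point is filled after hepatectomy.

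The difference between these 2 agonist effects was tested directly as the diet by agonist interaction, in which an additive slide effect cancels because both effects run from the first slide to the second. Of the 39 genes 16 had a lower agonist effect on MCD than on standard diet and 0 a higher one, where 11.0% of all tested genes were called, 4.93% lower. The median was -1.43, against 0.18 for all genes. For 30 of the 39 the estimate was positive on standard diet and negative on MCD diet, in 2 comparisons that share no arrays.

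Mx1 had an interaction of -3.38 ± 0.67 (adjusted p = 0.00222), or -1.78 after normexp correction: the agonist effect was 2.27 on standard diet and -1.11 on MCD diet, where its livers read -1.81, -1.38, -1.14 and -1.09 without and -2.79, -1.43, -3.28 and -2.36 with agonist. Oasl2 gave -3.27 ± 0.66 (adjusted p = 0.00258), and its standard-diet livers read -1.13, 0.39, -1.23 and -1.55 without and -0.03, 0.23, 0.47 and -0.38 with agonist. Replicate 2 of the standard-diet livers lay within the treated range for this gene.

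Oas2 gave -2.24 ± 0.45 (adjusted p = 0.00259), Usp18 gave -2.18 ± 0.49 (adjusted p = 0.00542), Ifih1 gave -1.79 ± 0.41 (adjusted p = 0.00621) and Gbp3 gave -2.78 ± 0.68 (adjusted p = 0.0103). By role these were antiviral effectors, the ISG15 protease, a sensor and a GTPase. The other 10 genes called lower were Rtp4, Irf9, Iigp1, Ifi44, Gbp6, Xaf1, Irf8, Parp14, Oas1a and Zbp1, with interactions from -2.66 for Zbp1 to -1.43 for Parp14. All 4 genes of the last group (Rtp4, Ifi44, Xaf1, Parp14) were among the 16, and none of the 3 antigen processing genes was.

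Among the 15 genes with an ISRE core 3 were called, among the 14 without one 5, and among the 10 with no promoter entry 8. Because those 10 were not searched, the counts cannot show whether the letters go with the calls. The count was 10 without replicate 3 of the MCD agonist group and 27 after scaling to the array median, and the authors' deposited table gave 12, all lower. Mx1, Oasl2, Oas2, Usp18, Ifih1, Gbp3, Rtp4 and Irf9 kept their calls under every alternative fitted gene by gene. Of 6 Kupffer cell markers 5 were also called lower in the interaction, Vsig4 at -4.04 (adjusted p = 0.000387), and their part was not tested.

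**Figure D4:**
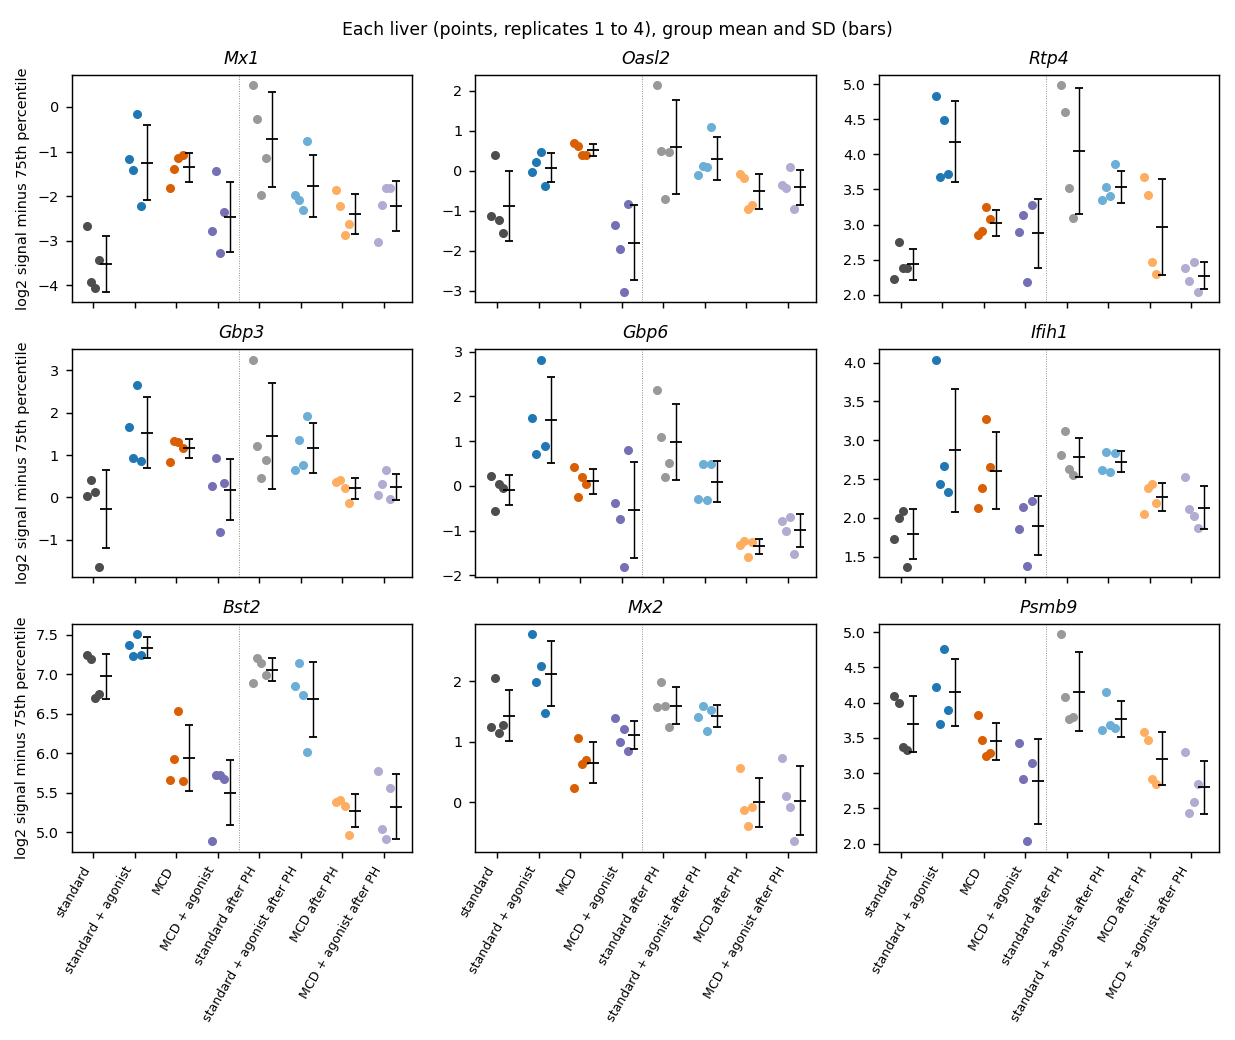
Level of 9 of the genes in each liver (points; log2 signal minus the array's 75th percentile), with group mean and SD. In baseline group means, Mx1, Oasl2, Rtp4, Gbp3, Gbp6 and Ifih1 are higher with agonist on standard diet and lower with agonist on MCD diet. This does not hold for the standard-diet means after hepatectomy. Bst2, Mx2 and Psmb9 have lower means on MCD than on standard diet in all 4 settings.

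The MCD diet alone gave calls in both directions, at about the share called among all genes. In MCD against standard-diet livers, 8 of 39 rose and 2 fell, where 25.8% of all tested genes changed, 10.8% rising and 15% falling. Both groups' livers did not overlap for 18 of the 39, against 27.9% of all genes. The median was 0.39, against -0.13 for all genes.

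Usp18 read 0.81, 1.92, 1.56 and 1.45 on standard diet and 2.78, 3.81, 3.54 and 3.32 on MCD diet, a change of 1.93 ± 0.35 or 3.82-fold (adjusted p = 0.000217). Mx1 rose by 2.16 ± 0.47 (adjusted p = 0.00144), with all MCD livers above all standard-diet livers, and by 0.93 after normexp correction. Oasl1, which restrains translation of the transcription factor IRF7, read 1.36, 3.64, 2.88 and 2.61 and then 4.14, 4.17, 3.99 and 3.84, without overlap (change 1.41 ± 0.43, adjusted p = 0.0158).

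Isg20, an exonuclease, went from 1.78, 1.56, 2.03 and 2.25 to 2.98, 3.22, 3.00 and 2.38 (change 0.99 ± 0.31, adjusted p = 0.0198). Ifi44 reached -0.74, 0.12, 0.03 and -0.90 on MCD diet (change 1.25 ± 0.41, adjusted p = 0.0262). Oasl2 (1.40 ± 0.46), Gbp3 (1.43 ± 0.48) and Ifih1 (0.81 ± 0.29) completed the rises, and 5 of the 8 also rose with agonist on standard diet, a comparison that shares the standard-diet livers.

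Bst2, or tetherin, which holds budding virus at the cell surface, went the other way: it read 7.25, 7.19, 6.70 and 6.75 on standard diet and 5.66, 5.93, 6.53 and 5.64 on MCD diet. The groups did not overlap, and the change was -1.03 ± 0.25 (adjusted p = 0.00318). Mx2 read 1.24, 2.05, 1.14 and 1.27 and then 0.24, 1.06, 0.63 and 0.69 (change -0.77 ± 0.28, adjusted p = 0.0447).

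Scaling to the array median shifted all genes, moving their median from -0.13 to 0.24, and gave 15 rises and 0 falls. Under it Bst2 changed by -0.66 (adjusted p = 0.0769) and Mx2 by -0.40 (adjusted p = 0.349), so both calls depend on the scale. The Mx2 call held in 6 of 15 alternatives, being lost also without standard-diet replicate 1, 2 or 4, without MCD replicate 1, 3 or 4, with no filter and in the fit to these groups alone. The count of 10 became 5 without standard-diet replicate 1, 6 without replicate 4 and 6 without MCD replicate 3. The authors' deposited table as labelled gave 6 rises and 0 falls. Of the 6 Kupffer cell markers 4 rose with 0 falls, and of 6 recruited macrophage markers 4 rose and 1 fell; their part was not tested.

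**Figure D5:**
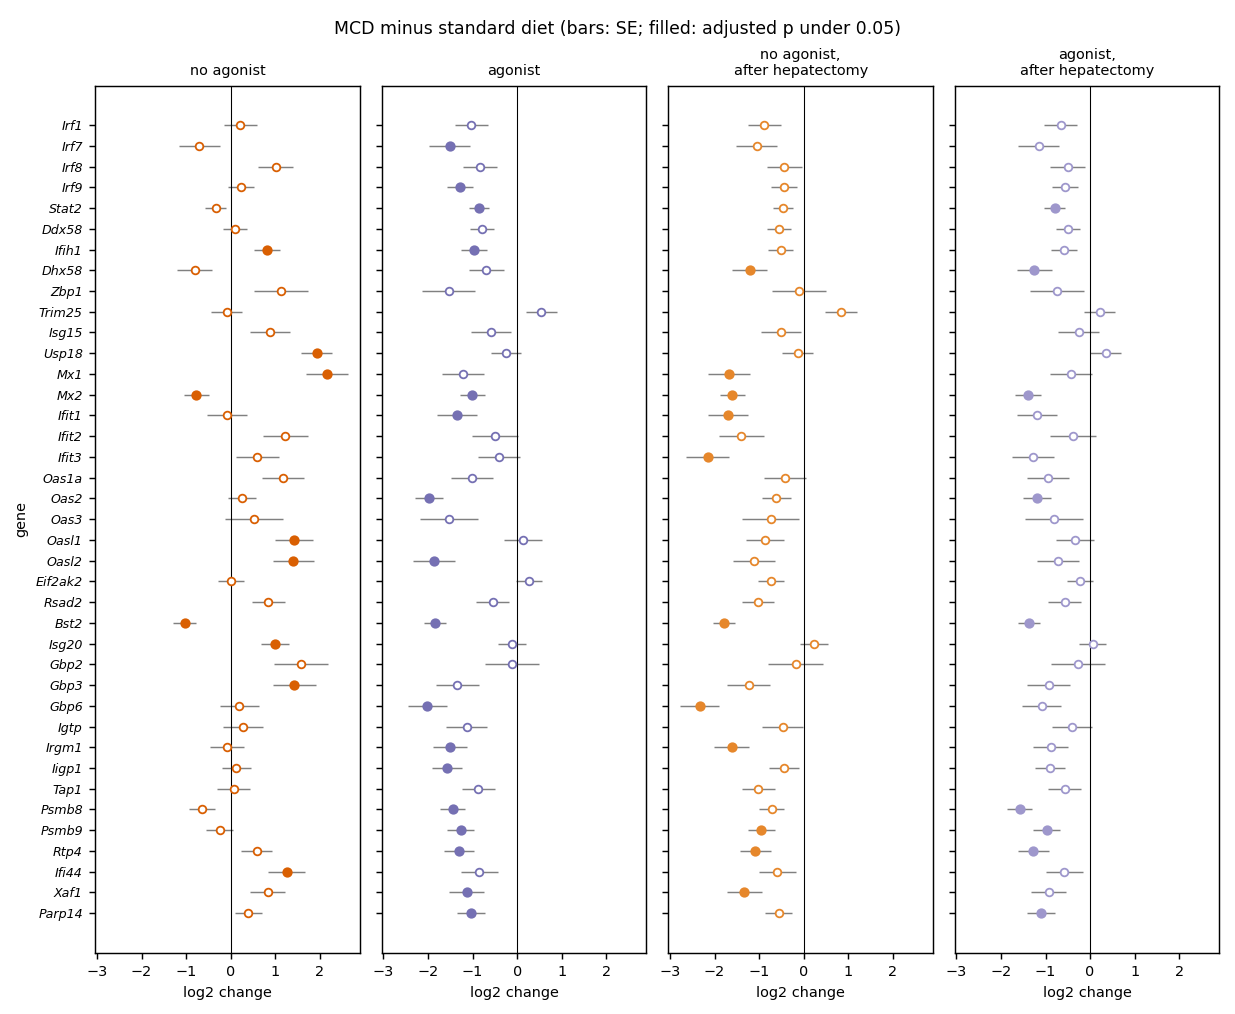
Change with MCD diet for each gene in the 4 settings (log2, MCD minus standard diet; bars, SE; filled points, adjusted p under 0.05). Filled points lie on both sides of 0 without agonist at baseline and only left of 0 in the other 3 settings, where the counts are 17, 11 and 9.

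Under agonist the diet comparison ran one way. In MCD against standard-diet livers, both given agonist, 17 of 39 fell and 0 rose, where 15.1% of all tested genes changed, 6.97% falling. The median was -1.03, against 0.03 for all genes.

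Bst2 read 7.37, 7.23, 7.51 and 7.25 on standard diet and 4.88, 5.73, 5.73 and 5.67 on MCD diet, a change of -1.84 ± 0.25 or 3.57-fold lower (adjusted p = 1.23e-05). Oas2 read 1.36, 2.34, 1.15 and 0.92 in standard-diet livers with agonist, all above the MCD livers with agonist (change -1.98 ± 0.32, adjusted p = 0.000105). Psmb8, an inducible subunit of the immunoproteasome, read 4.08, 4.01, 4.52 and 4.10 and then 2.95, 2.34, 2.40 and 3.22 (change -1.45 ± 0.28, adjusted p = 0.000822).

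Iigp1, an immunity-related GTPase that attacks pathogen vacuoles, read 4.48, 4.09, 5.13 and 5.01 and then 3.20, 3.92, 1.87 and 3.40 (change -1.58 ± 0.33, adjusted p = 0.00168). Gbp6 read 1.51, 0.70, 2.82 and 0.89 and then -0.38, -0.74, -1.80 and 0.80, with 1 MCD liver inside the standard-diet range (change -2.01 ± 0.44, adjusted p = 0.00209). Irf9 read 3.79, 4.25, 3.70 and 3.28 on standard diet with agonist, above all 4 MCD livers (change -1.28 ± 0.29, adjusted p = 0.00265).

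The other 11 genes that fell were Psmb9, Oasl2, Irgm1, Rtp4, Stat2, Mx2, Parp14, Ifih1, Irf7, Ifit1 and Xaf1. By role, 3 of 5 transcription factors, 5 of 14 effectors, 3 of 6 GTPases and 2 of 3 antigen processing genes fell, and neither gene of the ISG15 system passed. The count was 11 without replicate 1 or replicate 3 of the standard-diet agonist group and 5 in the fit to these groups alone, and the authors' deposited table as labelled gave 0 rises and 7 falls. Kupffer cell markers fell for 3 of 6 with 0 rises, and their part was not tested.

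After hepatectomy, too, the genes that passed were lower on MCD than on standard diet. Without agonist 11 of 39 fell and 0 rose, where 11.4% of all tested genes changed, 5.83% falling, and the median was -0.74, against -0.03 for all genes. With agonist 9 fell and 0 rose, where 8.31% changed, 3.91% falling, and the median was again -0.74, against -0.00 for all genes.

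Bst2 read 6.89, 7.21, 7.15 and 6.99 on standard diet and 5.38, 5.41, 5.33 and 4.97 on MCD diet without agonist, with narrow, separate groups (change -1.79 ± 0.25, adjusted p = 1.99e-05). Mx2 read 1.57, 1.99, 1.58 and 1.25 and then 0.58, -0.12, -0.39 and -0.08 (change -1.60 ± 0.28, adjusted p = 0.000425). Gbp6 read 2.14, 1.09, 0.20 and 0.51 and then -1.31, -1.23, -1.60 and -1.25, tight and low on MCD diet (change -2.33 ± 0.44, adjusted p = 0.00078).

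Ifit3, a partner of IFIT1 in RNA binding, read 2.51, 3.17, 1.69 and 2.01 and then 1.25, 0.07, -0.07 and -0.50 (change -2.16 ± 0.48, adjusted p = 0.00374). Irgm1, a regulator of the immunity-related GTPases, read 4.65, 4.43, 3.24 and 3.43 and then 1.89, 2.20, 2.69 and 2.51 (change -1.61 ± 0.39, adjusted p = 0.00694). For Ifit1 the values 0.28, 0.80, -1.34 and -0.60 and then -1.04, -2.01, -2.42 and -2.21 overlapped (change -1.70 ± 0.45, adjusted p = 0.0133). Mx1, Xaf1, Rtp4, Psmb9 and Dhx58 also fell.

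With agonist after hepatectomy, Psmb8 read 4.05, 4.39, 4.31 and 4.20 on standard diet and 2.93, 2.08, 2.48 and 3.15 on MCD diet (change -1.58 ± 0.28, adjusted p = 0.00065). Bst2 read 6.85, 7.14, 6.74 and 6.02 and then 5.78, 5.05, 4.92 and 5.56 (change -1.36 ± 0.25, adjusted p = 0.000772). Mx2 read 1.41, 1.58, 1.18 and 1.52 and then 0.74, 0.10, -0.07 and -0.64 (change -1.39 ± 0.28, adjusted p = 0.00216).

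Oas2 read 0.91, 1.00, 0.83 and 1.14 and then -0.34, -0.19, -0.19 and -0.17 (change -1.19 ± 0.32, adjusted p = 0.0171). Rtp4 read 3.35, 3.54, 3.41 and 3.86 and then 2.38, 2.19, 2.47 and 2.04 (change -1.27 ± 0.35, adjusted p = 0.02). Parp14, an ADP-ribosyltransferase, read 3.20, 2.63, 2.83 and 3.46 and then 1.38, 2.14, 2.26 and 1.93 (change -1.10 ± 0.31, adjusted p = 0.0224). All 9 genes that fell, with Stat2, Dhx58 and Psmb9 as the rest, had groups that did not overlap, as did 19 of the 39 in all, against 20.3% of all tested genes.

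Bst2 and Mx2 were thus lower on MCD diet in all 4 settings, which share no arrays with each other, by the scanner files' naming and subject to the dependence on scale, and for Mx2 on single livers, given for the first. The Mx2 call with agonist at baseline was also lost without replicate 1 of the standard-diet agonist group and in the fit to those groups alone. Without agonist the count was 6 without replicate 1, 5 without replicate 2 of the standard-diet group and 6 without MCD replicate 3, and 6 in the fit to these groups alone. With agonist it was 5 without replicate 2 or 4 of the MCD group and 16 in the fit to these groups alone. Median scaling gave 7 and 4. The authors' deposited table as labelled gave 0 calls in both comparisons. The 6 Kupffer cell markers gave 0 calls in both comparisons, while 3 of 6 neutrophil markers rose on MCD diet without agonist and 0 with it; their part was not tested. These groups were on different slides.

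The agonist after hepatectomy gave no call for any of the 39 genes by limma on either diet. On standard diet 0.0092% of all tested genes were called and 1 of the 39 had an unadjusted p under 0.05, Mx1, at -1.05 ± 0.47 (adjusted p = 1.00). On MCD diet 0.396% of all genes were called and 4 of the 39 had an unadjusted p under 0.05: Psmb8 (-0.95 ± 0.28), Oas2 (-1.05 ± 0.32), Stat2 (-0.58 ± 0.23) and Oas1a (-0.97 ± 0.47), with adjusted p from 0.126 to 0.358. The diet by agonist interaction called 0 of 39 and 0.0046% of all genes, with 1 unadjusted p under 0.05, for Psmb8. Without replicate 4 of the MCD group 1 gene was called on MCD diet. The authors' deposited table as labelled gave 1 rise and 13 falls on standard diet and 0 rises and 9 falls on MCD diet. A p that misses the threshold does not show equal levels, and whether the agonist effects before and after hepatectomy differ was not tested.

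Hepatectomy itself was set against the baseline livers of the same regimen. On standard diet without agonist 10 of 39 rose and 0 fell, where 13.7% of all tested genes changed, 6.22% rising, and the median was 0.99, against -0.07 for all genes. Mx1 read 0.50, -0.28, -1.98 and -1.14 after hepatectomy, above all baseline livers (change 2.79 ± 0.47, adjusted p = 0.000504, and 1.44 after normexp correction). Rtp4 read 4.99, 4.61, 3.52 and 3.09 (change 1.62 ± 0.35, adjusted p = 0.003) and Gbp3 read 3.26, 1.21, 0.45 and 0.89 (change 1.72 ± 0.48, adjusted p = 0.0183), both without overlap.

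Zbp1, a sensor of Z-form nucleic acid that can trigger necroptosis, read -0.90, 0.41, 0.16 and 0.69 at baseline and 3.89, 2.12, 0.95 and 1.48 after hepatectomy (change 2.02 ± 0.60, adjusted p = 0.0243). Usp18 read 3.12, 3.19, 1.85 and 2.39 after hepatectomy, its lowest liver overlapping the baseline (change 1.21 ± 0.35, adjusted p = 0.0206). Ifih1 read 2.81, 3.12, 2.64 and 2.56, all above baseline (change 0.99 ± 0.29, adjusted p = 0.0227). Ifit3, Isg20, Oasl2 and Xaf1 also rose, Isg20 by 1.01 on the probe used and 0.22 on its other probe.

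The count of 10 was 2 without replicate 1, 4 without replicate 2 and 18 without replicate 3 of the hepatectomy group, 5 without baseline replicate 1 or 4, and 1 in the fit to these groups alone. All 6 Kupffer cell markers, 4 of 6 recruited macrophage markers and 2 of 6 neutrophil markers rose in this comparison, 2 of 6 hepatocyte markers fell (median of the 6, -0.63), and their part was not tested.

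In the other regimens few of the genes were called for hepatectomy, near or below the share of all tested genes called in each. On MCD diet Gbp6 fell by 1.45 on the log2 scale (SE 0.44, adjusted p = 0.0331) and no other gene passed, where 9.47% of all genes changed. The call was lost without MCD replicate 1, 3 or 4 and without any 1 of the 4 livers after hepatectomy, and 8 genes fell in the fit to these groups alone. On standard diet with agonist Gbp6 (-1.39 ± 0.44, adjusted p = 0.049) and Stat2 (-0.94 ± 0.23, adjusted p = 0.0133) fell, where 7.33% changed. That count was 0 without replicate 3 of the baseline group, 1 without its replicate 1 or without any 1 of the hepatectomy livers, and 0 in the fit to these groups alone.

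On MCD diet with agonist Stat2 (-0.88 ± 0.23, adjusted p = 0.0147), Mx2 (-1.08 ± 0.28, adjusted p = 0.0156) and Trim25 (-1.27 ± 0.35, adjusted p = 0.0212) fell, where 10.1% changed. By the other Trim25 probe the change was 0.056 (adjusted p = 0.885). The count was 1 without replicate 4 of the MCD agonist group after hepatectomy, 0 in the fit to these groups alone, and 9 (6 higher, 3 lower) after normexp correction. Baseline and hepatectomy arrays differ in slide and scanner throughout, which cannot be told apart from the surgery.

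Counting over all 14 comparisons, 30 of the 39 genes passed in at least 1 of them. For 10 of the 39 more than 1 probe was tested, and in their called comparisons the other probe gave the same direction except for Trim25. The 9 that passed in none were the transcription factor Irf1, the RNA sensor gene Ddx58, the modifier Isg15, the effectors Ifit2, Oas3, Eif2ak2 and Rsad2, the GTPase Gbp2 and the peptide transporter subunit Tap1. Isg15, whose printed promoter holds 3 overlapping ISRE cores, spanned 1.78 to 4.74 in the MCD agonist group, and Rsad2, or viperin, read 0.56, 0.57, 0.57 and 0.66 in MCD livers against -0.49, -0.07, -0.17 and -0.29 on standard diet. That Rsad2 difference of 0.85 ± 0.37 did not pass although its groups did not overlap (adjusted p = 0.0873).

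Other genes of the pathway were followed on a list of interferon ligands, receptors, signalling proteins, sensors, further interferon-stimulated genes and class I presentation genes, 78 of which were tested. With agonist on standard diet 10 rose and 0 fell, among them Ifi47, an immunity-related GTPase (2.09 ± 0.43, adjusted p = 0.00487), Herc6, an ISG15 ligase in mice (1.22 ± 0.26, adjusted p = 0.00677), and Tgtp2, another such GTPase (2.80 ± 0.73, adjusted p = 0.022). With agonist on MCD diet 0 rose and 3 fell, and in the interaction 14 were lower and 0 higher, with the smallest adjusted p for Ifi204 (-3.05 ± 0.56, adjusted p = 0.00138) and the largest estimate for Tgtp2 (-3.63 ± 1.04, adjusted p = 0.0231). The diet at baseline raised 6 and lowered 5 without agonist. Under agonist the diet raised 4 and lowered 20, the latter including Herc6 (-1.53 ± 0.26) and Socs3, the STAT3 feedback inhibitor (-2.58 ± 0.46). Of all tested genes, 3.33% rose with agonist on standard diet and 4.93% were lower in the interaction. On MCD diet the agonist called 13.3% of all genes, 4.37% falling. The diet called 25.8% of all genes without agonist and 15.1% with it, 6.97% falling. A smaller share of the 78 than of all genes was thus called for agonist on MCD diet and for diet without agonist. After hepatectomy the agonist called 0 of the 78 on either diet.

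Gbp5, a guanylate-binding protein outside the 39, rose on MCD diet at baseline (2.75 ± 0.42, adjusted p = 3.02e-05) and after hepatectomy without agonist (3.89 ± 0.42, adjusted p = 5.89e-07) and with it (3.13 ± 0.42, adjusted p = 2.38e-05). In the last 2 settings Gbp2, Gbp3 and Gbp6 among the 39 gave 0 rises. The receptor subunit gene Ifnar1 was higher on MCD diet at baseline without (1.10 ± 0.33) and with agonist (1.14 ± 0.33), and Ifngr1 rose with diet without agonist (1.00 ± 0.25, adjusted p = 0.00379). Probes for Ifnb1 and Ifng were not well above background in all 4 livers of any group and were not tested. Of the 5 ligand genes that were tested, limma called 0 for the agonist or the diet at baseline, with 1 unadjusted p under 0.05 over those 4 comparisons. Ifnl3, a type III interferon, rose after hepatectomy on standard diet (0.80 ± 0.22, adjusted p = 0.0171) and on MCD diet (1.02 ± 0.22, adjusted p = 0.00383), and Ifna5 was lower on MCD diet after hepatectomy (-1.91 ± 0.55, adjusted p = 0.0229), where 1 of 4 arrays was well above background. Ifna2 and Ifnk were called once each, higher after hepatectomy with agonist on standard and on MCD diet, against baseline livers with 0 of 4 arrays well above background. The ligand genes have close paralogs that a probe may not tell apart.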

How the data were processed

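Total RNA from 32 livers was labelled with Cy3, per the labels' protocols, and the arrays were quantified with Feature Extraction 10.7.3.1, per the file headers. The deposited scanner files hold linear intensity per spot, background-subtracted by that software. The authors also deposited a table of log2 values, made with limma per the submitters' processing notes, whose centring is not given in the sources used here. Of its 32 columns 16 best matched arrays of another group, so it served as an alternative only.

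Intensities were log2-transformed and each array's 75th percentile subtracted. Control spots and spots marked as outliers (5010, 0.264%) were left out. A probe was tested if every one of the 4 arrays in 1 or more groups had it well above background, and a gene was read by its brightest tested probe. Contrasts came from one fit over 8 groups (R 4.3.3, limma 3.58.1), with Benjamini-Hochberg adjustment over 21730 genes; the script was tested on simulated data. The number of arrays limits the precision. Probe positions are mm9, as in the files. Their place within transcripts was not examined.

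The genes, the other pathway genes and the marker lists were chosen with earlier results of these data known. Named genes are those with the smallest adjusted p, up to 6 per comparison, plus a set named for orientation; the Trim25 probes were examined after their values were seen. Alternatives were normexp background correction (offset 50), median scaling, quantile normalization, no filter, separate fits of compared groups, a replicate block, and leaving out single arrays. No term for slide was possible between slides.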

Additional observations from a re-analysis of the deposited data

Results flagged for a closer look

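Of 248 sets of 4 livers (each of the 30 genes called anywhere, and the mean of the 39, in each group), 12 held a liver far from the rest by Dixon's ratio of gap to range, about as many as the 1 in 20 that chance flags. In the standard-diet agonist group after hepatectomy these were Irf8 (ratio 0.942, replicate 4 high), Psmb9 (0.860, replicate 2 high) and Stat2 (0.838, replicate 2 high). In the MCD agonist group after hepatectomy they were Irf9 (0.938, replicate 1 high), Dhx58 (0.913, replicate 3 low), Stat2 (0.908, replicate 4 low) and Oas2 (0.834, replicate 1 low). The MCD agonist group at baseline had Bst2 (0.931, replicate 1 low) and Oas2 (0.883, replicate 3 low). The remaining ones were Irgm1 in the standard-diet agonist group (0.879, replicate 3 high), Mx2 in standard-diet livers (0.863, replicate 2 high) and Parp14 in MCD livers after hepatectomy (0.859, replicate 4 low).

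The agonist effect differed between diets at baseline for 16 genes by the interaction test, in log2 units of the effect on MCD minus that on standard diet. The values were -3.38 for Mx1, -3.27 for Oasl2, -2.78 for Gbp3, -2.66 for Zbp1, -2.24 for Oas2, -2.21 for Gbp6, -2.19 for Oas1a and -2.18 for Usp18. They were -2.11 for Ifi44, -1.96 for Xaf1, -1.89 for Rtp4, -1.84 for Irf8, -1.79 for Ifih1, -1.71 for Iigp1, -1.51 for Irf9 and -1.43 for Parp14.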

How the results depend on the processing

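Among the called changes of single genes, 1213 of the refits kept the call, 353 kept the direction but not the call, and 2 reversed, both for Trim25 by its other probe (-0.025 with agonist on MCD diet and 0.056 for hepatectomy on MCD diet with agonist). Counts of the 39 genes called moved by more than 1.5 times as follows. For the agonist on standard diet the 11 became 4 with no filter, 2 with only these groups fitted and 6 from the deposited table with columns placed at the arrays they match, a choice made after seeing the data. For the agonist on MCD diet the 6 became 15 with normexp, 13 with median scaling, 3 with only these groups and 10 from the deposited table as labelled. The interaction's 16 became 27 with median scaling. For MCD diet without agonist the 10 became 6 from the table as labelled; with agonist the 17 became 5 with only these groups, 7 from the table as labelled and 10 with its columns placed. After hepatectomy the diet counts of 11 and 9 became 7 and 4 with median scaling, 6 and 16 with only these groups and 0 and 0 from the table as labelled, while the agonist counts of 0 became 14 on standard diet and 9 on MCD diet from that table. For hepatectomy on MCD diet the 1 became 0 with normexp, 0 with no filter and 8 with only these groups. On standard diet the 10 became 1 with only these groups. On standard diet with agonist the 2 became 4 with normexp, 1 with median scaling, 1 with quantile normalization, 1 with no filter, 0 with only these groups and 1 with the replicate block. On MCD diet with agonist the 3 became 9 with normexp and 0 with only these groups. The cause was not tested. Median scaling moved the median of all genes from -0.01 to 0.17 for the agonist on standard diet, 0.15 to -0.21 on MCD diet, 0.18 to -0.36 for the interaction and 0.03 to -0.13 for MCD diet with agonist, -0.03 to 0.09 for MCD diet after hepatectomy, and for hepatectomy from -0.07 to 0.09 on standard diet and -0.07 to 0.08 on MCD diet with agonist. In the last it gave 1 higher and 1 lower, against 0 and 3.

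With each array left out, counts ranged from 3 to 12 for the agonist on standard diet, 3 to 9 on MCD diet and 10 to 18 for the interaction. They ranged from 5 to 10 for MCD diet without agonist and 11 to 20 with it, and after hepatectomy from 5 to 15 and from 5 to 7. For the agonist after hepatectomy they were 0 on standard diet, 0 to 1 on MCD diet and 0 for the interaction. For hepatectomy they ranged from 2 to 18 on standard diet, 0 to 1 on MCD diet, 0 to 3 on standard diet with agonist and 1 to 4 on MCD diet with agonist. No comparison had all 4 same-numbered pairs correlated over 0.1 (range -0.205 to 0.441), the mark set for pairing, so the numbers were not taken to pair livers, although all 4 were positive in 3 comparisons. The replicate block gave 10 for the agonist on standard diet, 6 on MCD diet, 16 for the interaction and 16 for MCD diet with agonist. Every liver correlated best with its own number in 2 comparisons, MCD diet with agonist and agonist on MCD diet. Mx1 and Oas3 were partly below background, which limits their values.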
